A study of Homo sapiens with 27 samples.

Results

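The genes described here are 10 genes of the start of translation, 8 initiation factors and 2 proteins that bind eIF4E. They were chosen by name: EIF4G1, EIF4G2, EIF4E, EIF4A1, EIF4A2, EIF4B, EIF2S1, EIF5, EIF4EBP1 and EIF4EBP2. Of these, 9 had rows among the 16733 genes analysed, and EIF4EBP2 had none and was not analysed here. Together they held 55 of 73554 splicing events, each of which has a reference path common to both isoforms and the alternative paths 1 and 2. EIF4G1 had 20 events, EIF4A2 15, EIF4E 7, EIF4A1 5, EIF4B 3 and EIF5 2, and EIF4G2, EIF2S1 and EIF4EBP1 had 1 each. Many of the 165 rows are the same probe set listed under several events, and 143 were distinct.

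Total RNA of A549, an established human lung adenocarcinoma line, was hybridized to HTA 2.0 arrays, which carry probes on exons and on exon junctions. Cells received the transfection reagent Lipofectamine alone, a scramble siRNA, or an siRNA against SRSF1, an SR protein that binds RNA and takes part in the choice of splice sites. The dose and time of the siRNAs are not given in the sources used here, and the level of SRSF1 itself, which would check the labels, was not analysed here. Each of the 3 conditions had 3 samples with 3 hybridizations each, 27 in all, and every sample value below is the mean of its 3 hybridizations. The values are log2 signals, so that a difference of 1 is a factor of 2, and signals of different genes or paths cannot be compared as amounts of RNA. The authors give each condition 3 biological replicates, taken here to be the samples. Nothing says whether they were separate cultures, so the p-values of genes measure the spread between these samples. Those of events and paths pool this spread over the 3 paths of an event, as if the paths of a sample were independent.

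A capped mRNA is recognised by eIF4F. In this complex EIF4E binds the cap, EIF4G1 is the scaffold and EIF4A1 or the close paralog EIF4A2 is the RNA helicase that unwinds the leader, with EIF4B as its cofactor. EIF4G2 (DAP5) resembles the scaffold but lacks the part that binds EIF4E, and serves initiation that does not use EIF4E. EIF2S1 is the alpha subunit of eIF2, which brings the initiator tRNA and is inhibited when this subunit is phosphorylated, and EIF5 stimulates the hydrolysis of GTP on eIF2 at the start codon. The 4E-binding proteins hold EIF4E away from the scaffold until mTOR phosphorylates them.

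Many mRNAs of the translation machinery begin with a C and a run of pyrimidines, the terminal oligopyrimidine motif through which mTOR controls their translation. The first bases of the 4 genes whose expression rose are therefore shown, as 20 bases before and 10 bases from the annotated first base of the transcript on. Sequences are from RefSeq (GRCh38.p14), 5′ to 3′ on the strand of the gene, with the first 5 transcribed bases in capitals. EIF5 has another annotated start, which is not shown.
EIF4A2 (chr3:186783557-186783586, plus strand): gggtggttgggcgccgctgtCTTTTcagtc
EIF4B (chr12:53006436-53006465, plus strand): cgtgattgcctcatccgggtCTTTTgcgtt
EIF4A1 (chr17:7572805-7572834, plus strand): tcgataggcgggcactccgcCCTAGtttct
EIF5 (chr14:103334217-103334246, plus strand): gcgcggcggcggcgttgttcAGTCAgagcg
A C followed by 4 bases that are each C or T stood at the annotated first base of EIF4A2 and EIF4B, and at none of the other 11 windows searched for these genes. The windows cover 9 of the 10 genes, and EIF4EBP1 was left out of this search and is named only. Of all 35116 windows in the table, 4.07% began in this way, on the strand of the gene alone. This describes annotated starts, and the starts used in A549 were not measured.

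Expression was taken as the mean of the reference paths of a gene. With SRSF1 siRNA, 4 of the 9 genes rose against scramble siRNA and 0 fell, in limma with Benjamini-Hochberg adjustment over 12545 genes at an adjusted p under 0.05. The genes that rose were both helicases, the helicase cofactor EIF4B, and EIF5. Over all genes tested, 28.5% were called higher and 27% lower. In 6 of the 9 genes the samples of the 2 conditions did not overlap, where 65.3% of all genes did not. The median change was 0.09 over the 9 genes and 0.04 over all genes. In bulk RNA a change in the share of cells that express a gene cannot be told apart from a change in the RNA per cell.

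EIF4A2 (ENSG00000156976), the helicase paralog, moved most. Its expression was 8.18, 8.33 and 8.27 with Lipofectamine, 8.40, 8.54 and 8.50 with scramble siRNA and 9.07, 9.09 and 9.04 with SRSF1 siRNA. The 3 conditions did not overlap. The rise with SRSF1 siRNA against scramble siRNA was 0.59 ± 0.05 (SE, n = 3 a condition, limma adjusted p = 1.6e-06), a fold of 1.50, and 644 of 12545 genes rose more.

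EIF4B (ENSG00000063046) gave 10.63, 10.70 and 10.77 with Lipofectamine, 10.82, 10.87 and 10.81 with scramble siRNA and 11.11, 11.17 and 11.21 with SRSF1 siRNA. Again the conditions did not overlap, and the rise against scramble siRNA was 0.33 ± 0.05 (SE, limma adjusted p = 1.2e-04). EIF4A1 (ENSG00000161960), the principal helicase of eIF4F, lay at 10.75, 10.76 and 10.85 with scramble siRNA and at 11.08, 11.06 and 11.08 with SRSF1 siRNA, a rise of 0.29 ± 0.05 (SE, limma adjusted p = 5.0e-04). In contrast to EIF4A2, its Lipofectamine samples, at 10.77, 10.90 and 10.93, overlapped those with scramble siRNA. EIF5 (ENSG00000100664) lay at 9.37, 9.28 and 9.32 with scramble siRNA and at 9.55, 9.59 and 9.63 with SRSF1 siRNA, a rise of 0.26 ± 0.05 (SE, limma adjusted p = 5.6e-04). EIF4A1 and EIF4A2 are similar in sequence, and probes that hit up to 3 genes were kept when the probe sets were made, so signal shared between the paralogs cannot be told apart.

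The cap-binding protein, the scaffolds, eIF2 alpha and the 4E-binding protein did not pass the test in this comparison. The change of EIF4E (ENSG00000151247) was 0.08, with a 95% interval from -0.05 to 0.21. That of EIF4G1 (ENSG00000114867) was 0.09, from -0.01 to 0.18, although its SRSF1 siRNA samples all lay above those with scramble siRNA. EIF4G2 (ENSG00000110321) gave -0.02, from -0.13 to 0.08. With the mean of all paths in place of the reference path, it was called higher, by 0.32 (limma adjusted p = 2.0e-05), and its path 2, described with the events, enters that mean. EIF2S1 (ENSG00000134001) was the only other gene with a negative estimate, -0.10, from -0.21 to 0.01 (limma adjusted p = 0.099). Without the third scramble siRNA sample its adjusted p was 0.045. EIF4EBP1 (ENSG00000187840) gave 0.08, from -0.03 to 0.20.

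**Figure D1:**
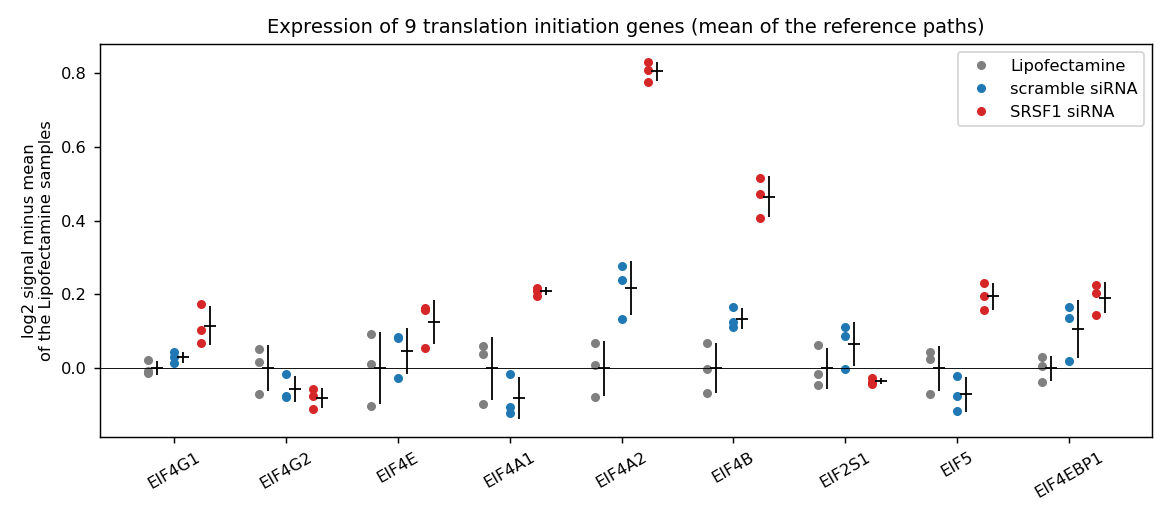
Expression of the 9 genes in each sample, as the log2 signal (mean of the reference paths) minus the mean of the Lipofectamine samples. Points are the 3 samples of a condition and the black marks their mean and SD; the SRSF1 siRNA samples of EIF4A2, EIF4B, EIF4A1 and EIF5 lie above all others of the gene, those of EIF4A2 at 0.80 on average.

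Scramble siRNA against Lipofectamine asks what a control siRNA did by itself. Of the 9 genes, only EIF4A2 was called, higher by 0.22 ± 0.05 (SE, limma adjusted p = 0.015), where 11.1% of all genes were called higher and 9.02% lower. In 2 of the 9 genes, EIF4A2 and EIF4B, the samples of these conditions did not overlap, where 33% of all genes did not. The call was lost without the first Lipofectamine sample (0.18, limma adjusted p = 0.0501) and without the second scramble siRNA sample (0.19, limma adjusted p = 0.067). With the median of the reference paths in place of their mean the change was 0.01 (limma adjusted p = 0.93), and the rows behind this are described with the EIF4A2 events. EIF4B was higher by 0.13 (limma adjusted p = 0.082), and passed with the sample number as a block (adjusted p = 0.048). The other 7 genes differed by between -0.08 and 0.11.

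Against Lipofectamine, SRSF1 siRNA gave 6 genes called higher and 0 lower, where 27.7% of all genes were called higher and 24.1% lower. This comparison shares its samples with both others. The changes were 0.80 for EIF4A2, 0.46 for EIF4B, 0.21 for EIF4A1, 0.19 for EIF5 and 0.19 for EIF4EBP1, the inhibitor of EIF4E. With the mean of all paths as expression EIF4EBP1 lost its call and its sign, at -0.0034 (limma adjusted p = 0.95). Its weak path 2, at 4.38 or less in every sample, enters that mean. The condition means of this path were 4.22 with Lipofectamine and 3.93 with SRSF1 siRNA. EIF4G1, at 0.12, had an adjusted p of 0.046 in limma, and lost the call without any one of 7 of the 9 samples. Without the second Lipofectamine sample EIF4E was called as well, at 0.17 (limma adjusted p = 0.033).

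The event test asks whether path 1 and path 2 moved in opposite directions. An event was tested when the highest sample of each path exceeded a log2 signal of 5.77, and 31 of the 55 events passed this filter, 12 of EIF4A2, 11 of EIF4G1, 4 of EIF4A1, 2 of EIF4B and 1 each of EIF4G2 and EIF5. The 7 events of EIF4E and the single events of EIF2S1 and EIF4EBP1 did not, so that their splicing was not tested. In 13 of the 24 untested events path 1 alone was under the threshold, and in 9 path 2 alone. The event types and positions of these events were not analysed here.

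With SRSF1 siRNA against scramble siRNA, 0 of the 31 events were called by the event test, where 8.35% of the 25805 tested events of all genes were called. The smallest unadjusted p was 0.033, for event 2 of EIF4G1, which was the only event under 0.05. When the difference between the path changes was tested in place of opposite movement, 9 of the 31 events were called, where 30.7% of all events were. They were 5 of EIF4A2 and 1 each of EIF4B, EIF5, EIF4G2 and EIF4G1. The EIF4B event was event 2, whose path 1 passed the filter through its SRSF1 siRNA samples alone, and this path is also among the rises counted next. The single paths moved mostly one way. Of the 62 paths tested, 39 rose and 0 fell, where 20.9% of all paths rose and 16.2% fell. EIF4A2 gave 23 of these rises, EIF4A1 5, EIF4B and EIF4G1 4 each, EIF5 2 and EIF4G2 1. The paths are not independent of one another, since 57 of the 62 are distinct rows and events of a gene share probes.

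With scramble siRNA against Lipofectamine the event test gave 6 calls among the 31 events, all in EIF4A2, where 0.275% of all tested events were called. These 71 calls fell in 62 genes, and no other gene had more than 2. In all 6 events path 1 was lower and path 2 higher with scramble siRNA. The difference between the path changes was called in 8 of the 31 events, again all in EIF4A2, where 3.02% of all events were. Of the 62 paths, 11 rose and 6 fell, where 4.47% of all paths rose and 4.07% fell, and 5 of the distinct rows that fell and 8 of those that rose belonged to EIF4A2. For SRSF1 siRNA against Lipofectamine 0 of the 31 events were called by the event test, where 6.08% of all events were, and 10 by the difference between path changes, where 27.1% were. There 36 of the 62 paths rose and 0 fell, where 18.1% of all paths rose and 14.6% fell. These rises include path 1 of EIF4B event 2, which passed the filter through its SRSF1 siRNA samples alone.

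Event 15 of EIF4A2 had the lowest p of these. Its path 1 gave 7.38, 7.40 and 7.55 with Lipofectamine, 6.93, 6.98 and 7.09 with scramble siRNA and 8.24, 7.96 and 8.11 with SRSF1 siRNA. Its path 2 gave 8.66, 9.02 and 8.74, then 9.39, 9.65 and 9.46, then 9.77, 9.91 and 9.86 in the same order. The scramble siRNA samples were thus the lowest for path 1 and intermediate for path 2, with no overlap between conditions. Against Lipofectamine path 1 fell by 0.44 and path 2 rose by 0.69 (SE 0.09 for each, limma event test adjusted p = 1.5e-06). Against scramble siRNA, SRSF1 siRNA raised both, path 1 by 1.10 (limma adjusted p = 6.6e-11) and path 2 by 0.35 (adjusted p = 0.0025).

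Event 12 has the same path 2 row as event 15. Its path 1 gave 6.91, 6.93 and 7.21 with Lipofectamine, 6.62, 6.49 and 6.84 with scramble siRNA and 7.78, 7.79 and 7.78 with SRSF1 siRNA. The fall with scramble siRNA was 0.37 on the log2 scale, and the adjusted p of the event test was 5.5e-04 in limma. Event 7 showed the pattern in path rows of its own, a change of -0.44 in path 1 and 0.37 in path 2 (limma event test adjusted p = 5.5e-04).

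In event 9 path 1 gave 7.25, 7.38 and 7.52 and path 2 6.87, 7.60 and 7.37 with Lipofectamine. With scramble siRNA path 1 was at 7.0, 6.99 and 7.15 and path 2 at 7.83, 8.25 and 8.34, and the difference between the path changes was 1.20 ± 0.19 (SE, limma event test adjusted p = 0.037). Path 1 alone did not pass in this event (adjusted p = 0.13). In event 29 path 1 fell by 0.29 and path 2 rose by 0.33 (limma event test adjusted p = 3.3e-04), and in event 5 the changes were -0.24 and 0.38 (adjusted p = 0.0097). In event 5 the path 1 samples of the conditions overlapped, and path 1 alone did not pass (adjusted p = 0.068).

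The EIF4A2 calls did not all hold. When each event was judged by its weaker path alone (the higher one-sided p, in place of the sum), 0 of the 6 events were called (adjusted p = 0.20 for event 15 and 1 for the others, in limma), where 2 events of all genes were. With a spread of its own for each path, event 5 was lost (limma adjusted p = 0.071). Without the third Lipofectamine sample 3 of the 6 events were called, and events 12, 29 and 9 had adjusted p-values of 0.051, 0.051 and 0.26 in limma. Event 5 was lost without the first Lipofectamine sample (limma adjusted p = 0.20) and, with event 9, without the second scramble siRNA sample. Event 9 also lost its call without the first scramble siRNA sample (limma adjusted p = 0.068) or without any 1 of the SRSF1 siRNA samples (adjusted p from 0.054 to 0.064), which enter the shared spread. Nor was event 9 called with no filter, or with arrays centred on their medians. Event 29 was not among the calls under a filter at the 50% quantile. The changes of path 2 minus path 1 over these omissions stayed between 0.90 and 1.21 for event 12, 1.05 and 1.27 for event 15 and 0.65 and 0.95 for event 7. With the sample number as a block, 7 events were called, event 31 being added, and 191 events of all genes in place of 71. Path 1 of event 31 gave 4.69, 5.59 and 5.78 with scramble siRNA, the first and second under the threshold of the filter.

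**Figure D2:**
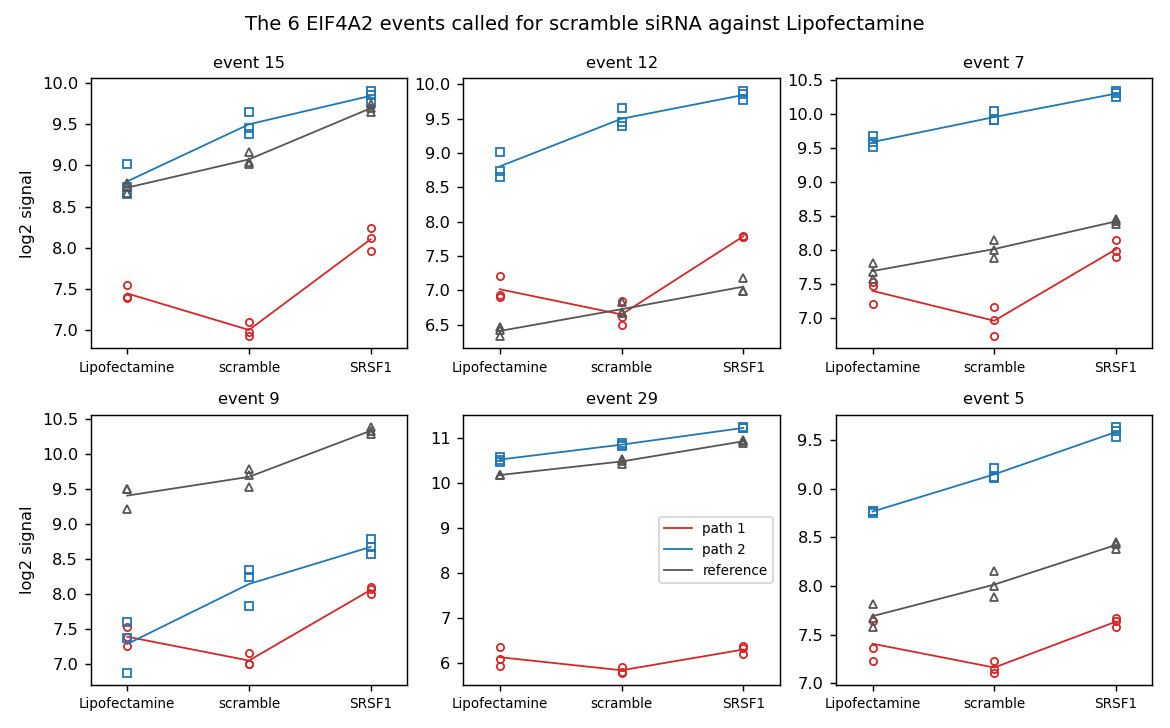
Log2 signals of path 1 (circles), path 2 (squares) and the reference path (triangles) in the 6 EIF4A2 events called for scramble siRNA against Lipofectamine, 3 samples a condition, with lines through the condition means. Path 1 is lowest with scramble siRNA in every panel, while path 2 and the reference path rise from Lipofectamine over scramble siRNA to SRSF1 siRNA.

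Of the 38 distinct rows of EIF4A2, 33 exceeded the threshold in their highest sample. In 19 of them the condition means rose from Lipofectamine over scramble siRNA to SRSF1 siRNA, and in 14 scramble siRNA was lowest and SRSF1 siRNA highest. No row of the 33 had another order. The events did not all show the fall of path 1 and rise of path 2 with scramble siRNA, and in events 4 and 6, which share both path rows, path 1 changed by 0.22 and path 2 by 0.41. In 31 of the 33 rows every SRSF1 siRNA sample lay above all 6 others. This was not particular to EIF4A2, and held for 8 of 8 such rows of EIF4B, 10 of 14 of EIF4A1 and 4 of 5 of EIF5. In EIF4G1 it held for 7 of 42, in EIF4G2 for 1 of 3 and in EIF4E for 0 of 9. In EIF4A2 the first pattern held 10 reference rows, 7 path 2 rows and 2 path 1 rows, and in 16 of the 19 rows no samples of different conditions overlapped. The second held 10 path 1 rows, 2 path 2 rows and the reference rows of events 34 and 36. The orders are a description, since the rows share probes. The share of rows without overlap between conditions was not counted over all genes.

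Events 34 and 36 stood apart from the rest of EIF4A2. Their reference paths fell with scramble siRNA, by 0.39 on the log2 scale in event 34 and by 0.38 in event 36, while the 10 reference rows of the first pattern were higher by 0.27 to 0.47. With SRSF1 siRNA against scramble siRNA these were the 2 most raised reference rows of the gene, by 1.17 and 1.29. Path 2 of event 34 had the largest rise of all 33 rows, from 8.99, 8.71 and 8.73 with scramble siRNA to 10.26, 10.17 and 10.22, although the event was not tested because its path 1 stayed under the threshold. Path 1 of event 36 rose by 1.16 and path 2 by 0.76 (limma adjusted p = 4.4e-10 and 7.1e-07), so that the event test, which asks for opposite movement, gave an unadjusted p of 1. The event of lowest p in this comparison was event 31 (limma event test adjusted p = 1), with path 1 higher by 1.07 and path 2 by 0.37. Its path 1 gave 4.69, 5.59 and 5.78 with scramble siRNA and 6.59, 6.27 and 6.42 with SRSF1 siRNA. The first and second scramble siRNA samples lay under the threshold, so that the size of this rise is uncertain. Against Lipofectamine, with samples at 5.81, 5.95 and 5.97, path 1 of event 31 rose by 0.52.

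**Figure D3:**
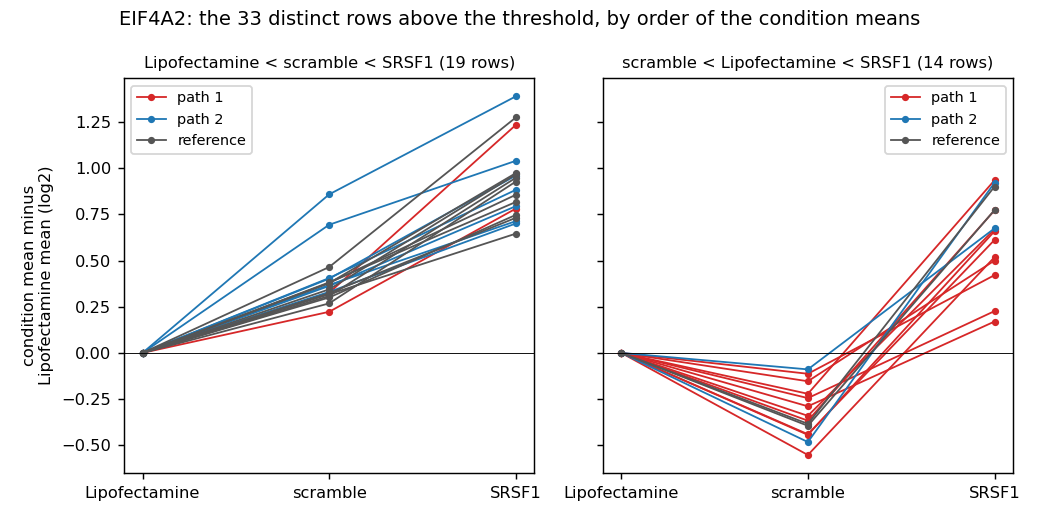
Condition means of the 33 distinct EIF4A2 rows above the threshold, as log2 differences from the Lipofectamine mean, with a line for each row coloured by path. The 19 rows of the left panel rise in both steps and the 14 rows of the right panel are lowest with scramble siRNA; SRSF1 siRNA is highest in all 33.

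EIF4G2 showed a change in 1 path alone. Path 2 of its event 39 was at 11.14, 11.15 and 11.16 with Lipofectamine, 10.90, 10.70 and 10.79 with scramble siRNA and 11.84, 11.79 and 11.77 with SRSF1 siRNA, with no overlap between conditions. It rose by 1.01 ± 0.06 (SE, limma adjusted p = 1.2e-13) with SRSF1 siRNA against scramble siRNA, a fold of 2.01, and fell by 0.36 with scramble siRNA against Lipofectamine (adjusted p = 1.8e-04). Path 1 changed by -0.01 and the reference path by -0.02 in the first comparison, and path 1 kept between 12.23 and 12.38 over all 9 samples. The event test therefore gave an adjusted p of 0.64, and 0.073 for SRSF1 siRNA against Lipofectamine, where path 2 rose by 0.65 and path 1 changed by -0.09. Without the first Lipofectamine sample this last value was 0.025. The difference between the path changes passed for SRSF1 siRNA against both controls (1.02, adjusted p = 2.1e-10, and 0.74, adjusted p = 7.4e-08, in limma). Leaving out any sample kept the rise of path 2 against scramble siRNA between 0.96 and 1.06.

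In EIF5, event 7 was the only event tested. Its path 2 gave 7.79, 7.60 and 7.80 with scramble siRNA and 8.57, 8.35 and 8.50 with SRSF1 siRNA, a rise of 0.74 ± 0.07 (SE, limma adjusted p = 2.1e-09). Path 1 rose by 0.36, close to the 0.39 of the reference path, and the paths differed in their changes by 0.38 (limma adjusted p = 0.0042). The Lipofectamine samples of path 2, at 7.75, 7.77 and 7.83, overlapped those with scramble siRNA.

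In EIF4B both tested events were higher in both paths. Path 1 of event 2 lay under the threshold of 5.77 in all 6 control samples, at 5.50, 5.55 and 5.69 with Lipofectamine and at 5.58, 5.35 and 5.57 with scramble siRNA, and at 6.39, 6.31 and 6.33 with SRSF1 siRNA. The path passed the filter through its SRSF1 siRNA samples alone and so had to differ. Their mean exceeded the threshold by 0.57, which is a lower bound for the log2 difference, and path 2 rose by 0.48 (limma adjusted p = 6.0e-06). In event 20, which had the lower p of the pair in the event test, path 1 rose by 0.48 and path 2 by 0.26 (limma adjusted p = 1.7e-06 and 0.0031), and the difference between the path changes did not pass (adjusted p = 0.084).

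In EIF4A1 the changes of the 8 tested paths lay between 0.11 and 0.49, and 5 of the paths rose past the threshold of the test. Path 1 of event 15 rose by 0.49, from 9.74, 9.91 and 10.02 with scramble siRNA to 10.39, 10.45 and 10.29 (limma adjusted p = 6.4e-04), and path 2 of event 27 rose by 0.41 (adjusted p = 1.5e-04). The event of lowest p, event 2, had changes of 0.11 in path 1 and 0.29 in path 2 (limma event test adjusted p = 1). Unlike EIF4A2, EIF4A1 had none of its 4 tested events called with scramble siRNA against Lipofectamine, by the event test or by the difference between path changes, and the change of its paths there lay between -0.16 and 0.06.

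EIF4G1, the scaffold, had the most events of these genes. Of its 22 tested paths, 4 rose with SRSF1 siRNA against scramble siRNA and 18 did not pass, and all 4 were path 1 rows, of events 2, 43, 36 and 4. Those of events 36 and 4 passed narrowly (limma adjusted p = 0.044 and 0.047). Against Lipofectamine they changed by 0.01 and 0.13 and did not pass (limma adjusted p = 0.93 and 0.16), while those of events 2 and 43 passed. Event 2 had the lowest p of the gene. Its path 1 gave 6.27, 6.06 and 6.11 with scramble siRNA and 6.44, 6.41 and 6.39 with SRSF1 siRNA, a rise of 0.27 ± 0.07 (SE, limma adjusted p = 0.0029), and its path 2, at 7.94, 8.02 and 8.10 against 7.87, 7.97 and 8.03, overlapped between the conditions. The paths of this event differed in their changes by 0.33 (limma adjusted p = 0.010), and the event test gave an adjusted p of 0.23. With scramble siRNA against Lipofectamine 0 of the 22 paths of EIF4G1 passed in limma at the adjusted threshold.

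**Figure D4:**
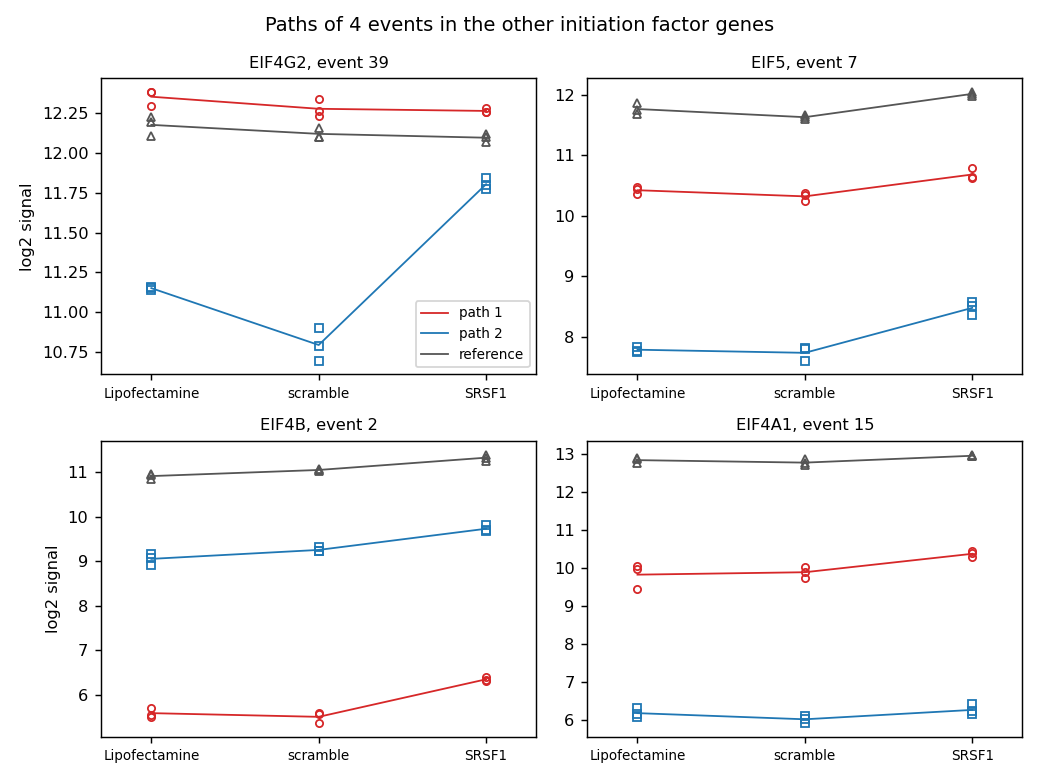
Log2 signals of path 1 (circles), path 2 (squares) and the reference path (triangles) in 1 event each of EIF4G2, EIF5, EIF4B and EIF4A1, 3 samples a condition, with lines through the condition means. Path 2 of EIF4G2 doubles with SRSF1 siRNA against scramble siRNA (log2 change 1.01) while path 1 and the reference path stay within 0.03 of scramble siRNA on average.

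**Figure D5:**
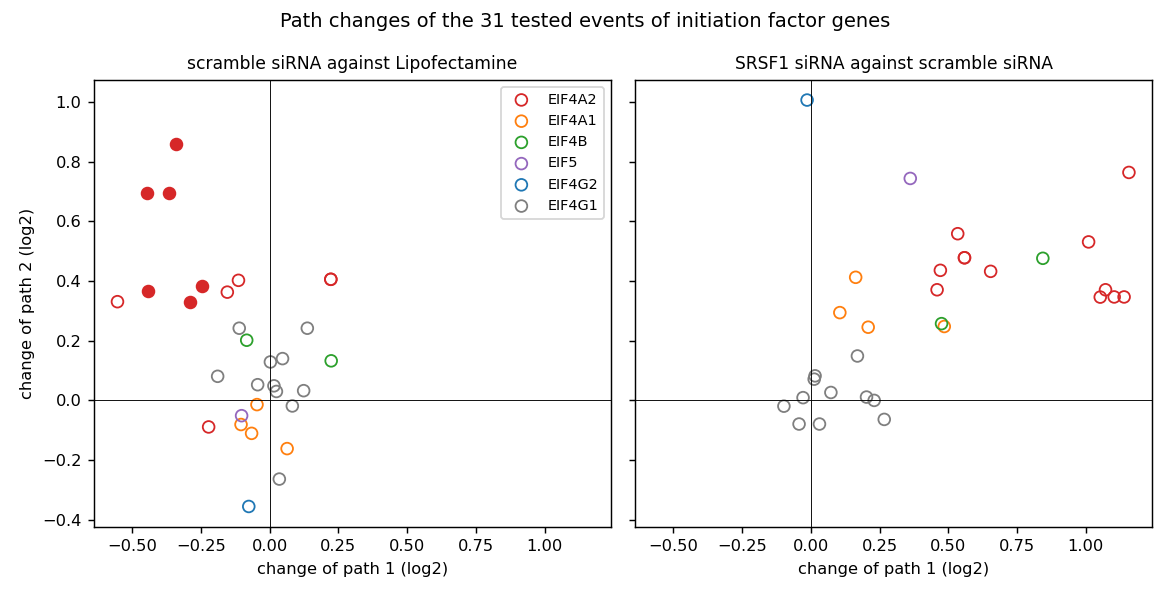
Change of path 2 against change of path 1 (log2) for the 31 tested events, for scramble siRNA against Lipofectamine (left) and SRSF1 siRNA against scramble siRNA (right), which share the scramble siRNA samples. Filled points passed the event test: 6 EIF4A2 events at the left, with path 1 lower and path 2 higher, and 0 at the right, where the EIF4A2 events have both paths higher.

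EIF4E, EIF2S1 and EIF4EBP1 had paths under the threshold. In EIF4E, whose 7 events make 15 distinct rows, 9 rows exceeded it, and in none of these did the SRSF1 siRNA samples all lie above the others. Path 1 of event 18, which event 4 repeats, was listed at 4.74, 5.14 and 4.72 with Lipofectamine, 4.53, 4.65 and 4.11 with scramble siRNA and 4.85, 4.91 and 4.57 with SRSF1 siRNA, all under the threshold. In EIF2S1 path 2 of event 6 stayed between 10.13 and 10.27 in all 9 samples, with path 1 at 4.11 or less. In EIF4EBP1 path 1 of event 1 stayed between 8.46 and 8.67, with path 2 at 4.38 or less.

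Genes whose expression ran most like that of EIF4A2 were found by Pearson correlation over the 9 samples among 12536 other genes. The 3 highest were ENSG00000126775, ENSG00000120333 and ENSG00000159111, each at r = 0.99, and the tables used here pair no symbol with them. This likeness is common in these samples, since 436 genes had r over 0.95 and the correlation is set largely by the differences between the 3 conditions.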

How the data were processed

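The authors mapped the HTA 2.0 probes with Bowtie 2.0 to Ensembl transcripts (74 in the methods, 75 in the supplementary methods; GRCh37), dropped probes that hit more than 3 genes, corrected the background, normalized all arrays by quantiles and summarized each path by RMA, so the deposited values are log2 signals. From these, the 3 hybridizations of a sample were averaged. The sources do not settle whether the sample number or the replicate number of the labels marks the biological replicate. Within a condition, hybridizations of the same sample number correlated in their deviations at 0.351 on average. Those of the same replicate number correlated at 0.296 and those sharing neither at 0.299, so a shared replicate number added no likeness. The sample number was used.

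The 3 conditions were fitted in limma 3.58.1 (R 4.3.3). For events, the 3 paths entered one fit with a shared spread, one-sided p-values of opposite path changes were summed, and p was adjusted over 25805 events that passed a 25% quantile filter on the reference signals. That fit treated the 3 paths of a sample as independent, with 26.06 degrees of freedom against 11.92 for genes. A spread of its own for each path gave fewer calls over all genes. For scramble siRNA against Lipofectamine they were 30 events in place of 71 and 3172 paths in place of 4408. For SRSF1 siRNA against scramble siRNA they were 2030 events in place of 2156 and 17807 paths in place of 19164. Single paths were adjusted over 51610 paths and genes over 12545. Samples of the same number correlated in their deviations across events, at 0.282, 0.287 and 0.396 for scramble siRNA and Lipofectamine. The correlations were 0.190, 0.110 and 0.171 for SRSF1 siRNA and Lipofectamine, and 0.128, 0.103 and 0.041 for SRSF1 siRNA and scramble siRNA. Samples of different numbers correlated at 0.071 or less. The numbers may thus pair the Lipofectamine samples with those of both siRNAs, which the labels do not state. Between SRSF1 siRNA and scramble siRNA a pairing is less clear, since the 0.041 lies under the 0.071 of samples of different numbers. The values given come from a fit that has no block, and blocked values are added where they changed a call. Arrays give no counts, and the number of arrays limits the precision. The scripts were tested on simulated data.

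The genes and lists were chosen with earlier results of these data known. By the rule for named genes, all 10 genes were described, with the events that passed the event test and, for each gene, the event of lowest p for SRSF1 siRNA against scramble siRNA. Other events named were chosen after their values were seen. SRSF1 itself, a list of further pathway genes and markers of A549 were not analysed here, because the reference tables used pair no symbols with Ensembl IDs; gene names come from the rule that chose the genes. Alternatives covered the filter, centring, the summary of reference paths, the combination of p-values, the reading of the labels, a block and the omission of each sample.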

Additional observations from a re-analysis of the deposited data

How the results depend on the processing

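The counts below are of the 9 genes, 55 events or their paths. For SRSF1 siRNA against scramble siRNA, the 0 called events became 1 with no filter (event 23 of EIF4G1, adjusted p = 0.024 in limma) and 9 with the difference between path changes, the 39 paths became 24 under a 50% quantile filter, and the 4 genes became 7 with the replicate number as biological replicate. For SRSF1 siRNA against Lipofectamine, the 0 events became 1, event 39 of EIF4G2, under the 50% quantile filter, with arrays centred on their medians, with the replicate number as biological replicate and with the 27 hybridizations as arrays. Of all events these settings called 573 of 7763, 1534 of 25825, 2334 of 25794 and 2053 of 26624, in place of 1569 of 25805. The difference between path changes gave 10 events. The 36 paths became 23 under the 50% quantile filter, where 6735 of 15526 of all paths were called in place of 16886 of 51610. For scramble siRNA against Lipofectamine, the 6 events became 0 with the larger one-sided p, where 2 events of all genes were called, and the single gene became 0 with the median of the reference paths, 4 with the replicate number as biological replicate, 3 with the replicate as random effect and 2 with the replicate block. Of all genes these last settings called 2224, 5196, 3439 and 3465 in this order, in place of 2527. For SRSF1 siRNA and scramble siRNA the sample numbers were not taken to pair the samples (correlations 0.128, 0.103 and 0.041), and the block left 4 genes, 0 events and 39 paths called. Beside the added EIF4B and event 31 of EIF4A2 with scramble siRNA against Lipofectamine, the block raised the paths called there from 17 to 23 and changed no other count of called genes or events. Of all paths 5745 were called there with the block, in place of 4408.

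With one sample left out, the calls ranged over 4 to 5 genes, 0 events and 35 to 40 paths for SRSF1 siRNA against scramble siRNA, 0 to 1 genes, 3 to 7 events and 12 to 18 paths for scramble siRNA against Lipofectamine, and 5 to 7 genes, 0 to 1 events and 32 to 35 paths for SRSF1 siRNA against Lipofectamine. With the mean of all paths as expression, EIF4G2 changed sign and was called higher with SRSF1 siRNA, by 0.32 against scramble siRNA and 0.16 against Lipofectamine (limma adjusted p = 2.0e-05 and 0.0058), and EIF4EBP1 changed to -0.057 and -0.0034, uncalled in both (adjusted p = 0.29 and 0.95). Other signs turned only on values near 0. With one sample left out, EIF4E ranged from -0.0048 to 0.092 for scramble siRNA against Lipofectamine and path 2 of EIF5 event 7 from -0.087 to 0.013, and the path changes of EIF4A2 event 5 differed by -0.089 to 0.025 for SRSF1 siRNA against scramble siRNA. The cause of these changes was not tested. Over all events, the calls for scramble siRNA against Lipofectamine ranged from 24 to 142 with one sample left out.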
